A study of Homo sapiens with 36 samples.

Results

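Tight junctions close the space between neighbouring epithelial cells, and 10 genes that build them were followed here across the mRNA libraries of Caco-2 and HT-29 cells. Of these genes, 7 encode claudins (CLDN1, CLDN2, CLDN3, CLDN4, CLDN7, CLDN12 and CLDN15), 1 encodes occludin (OCLN), and TJP1 and CGN encode the plaque proteins ZO-1 and cingulin. They were chosen by symbol from the 60591 genes of the mRNA count table, and all 10 were found and passed the filter on low counts in both lines. The rule named symbols and set no threshold on a measured value, and it was proposed with earlier results of these data known.

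Caco-2 and HT-29 are human colorectal cancer cell lines, and mRNA was sequenced in 18 libraries, 3 for each of 6 groups. For Caco-2 the labels give 21 days of differentiation, and for HT-29 they give none, so that line and culture state cannot be told apart. The treatments, 24 h in either line, were 300 µM CoCl2, 5 µM of the oxyquinoline derivative 4896-3212 (OD), or 0.5 µl of dimethyl sulfoxide (DMSO) per ml of medium as the control. Each agent blocks the enzymes whose hydroxylation leads to the breakdown of hypoxia-inducible factor (HIF). DMSO is not given for CoCl2 in the labels, the study's methods state that this medium held it too, at another concentration than the labels give, and a part of the solvent in the CoCl2 differences was not tested. The design text calls the replicates biological, and neither it nor the labels say whether they came from separate cultures on separate days.

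Claudins are small proteins with 4 membrane-spanning segments whose outer loops meet those of the neighbouring cell. CLDN1, CLDN3, CLDN4 and CLDN7 are mostly described as sealing claudins, CLDN2 and CLDN15 form channels for small cations and, for CLDN2, water, and CLDN12 has been linked to calcium passage in the intestine. Occludin spans the membrane next to them, and ZO-1 and cingulin tie the strand to the actin cytoskeleton on the inside. In the intestine the balance between sealing and pore-forming claudins is known to set how leaky the epithelium is.

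The promoters of CLDN4, CLDN1 and CLDN2 are shown because these genes had the largest changes, CLDN4 upwards and the others downwards. Each sequence holds the 250 bases before a RefSeq start on GRCh38.p14, read 5′ to 3′ on the gene's strand, and capitals mark the hypoxia response core, searched as ACGTG or GCGTG on both strands.
CLDN4, chr7:73830746-73830995, plus strand: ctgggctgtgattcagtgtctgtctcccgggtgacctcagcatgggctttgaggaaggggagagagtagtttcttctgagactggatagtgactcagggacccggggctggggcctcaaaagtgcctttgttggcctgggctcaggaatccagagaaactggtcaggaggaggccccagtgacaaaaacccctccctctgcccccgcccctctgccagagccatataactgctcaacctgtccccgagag
CLDN1, chr3:190322447-190322696, minus strand: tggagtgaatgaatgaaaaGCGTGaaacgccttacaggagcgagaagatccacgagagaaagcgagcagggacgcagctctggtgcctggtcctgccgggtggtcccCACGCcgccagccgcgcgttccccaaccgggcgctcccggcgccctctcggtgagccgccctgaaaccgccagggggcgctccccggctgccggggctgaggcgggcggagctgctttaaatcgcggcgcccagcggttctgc
CLDN2, first start, chrX:106899914-106900163, plus strand: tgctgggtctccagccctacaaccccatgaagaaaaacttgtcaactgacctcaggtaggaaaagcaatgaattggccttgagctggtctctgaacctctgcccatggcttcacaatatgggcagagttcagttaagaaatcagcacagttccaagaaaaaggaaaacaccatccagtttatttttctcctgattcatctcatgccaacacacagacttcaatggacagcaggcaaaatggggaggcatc
CLDN2, second start, chrX:106918110-106918359, plus strand: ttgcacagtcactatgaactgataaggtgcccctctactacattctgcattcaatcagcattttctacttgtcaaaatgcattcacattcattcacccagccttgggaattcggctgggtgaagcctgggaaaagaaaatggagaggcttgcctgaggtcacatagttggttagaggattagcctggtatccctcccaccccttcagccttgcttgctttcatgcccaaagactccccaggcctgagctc
CLDN1 held 2 cores, 231 and 143 bases before the start, whereas the windows of CLDN4 and CLDN2 held none. The core was present in 43.1% of 27305 promoters of the same length. Among the other members, CLDN3, CLDN7, OCLN, TJP1 and CGN held it in at least 1 of their windows, and CLDN12 and CLDN15 did not. An antioxidant response pattern, TGACNNNGC, was present in 11% of promoters and was absent from the windows of CLDN4 and CLDN1, while the second start of CLDN2 held it once, 248 bases upstream. A metal response core, searched as TGCACNC or TGCGCNC and present in 24.7% of promoters, was found in none of these 4 windows. These matches describe letters and not binding.

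The libraries held 12925719 to 22332639 counts. EPCAM, an epithelial surface protein, stood at 460 to 1288 CPM (counts scaled to library size), and the endothelial marker CDH5, the immune marker PTPRC and the fibroblast marker DCN had at most 3 counts in any library. Other genes of the same lists were present, PECAM1 at 28 to 172 counts in Caco-2 and 3 to 35 in HT-29, and COL1A1 at 202 to 405 and 23 to 116. PECAM1 fell with CoCl2 in Caco-2 (-2.15, FDR 6.91e-09) and HT-29 (-2.001, FDR 1.12e-05), and COL1A1 rose with OD in HT-29 (2.01, FDR 5.87e-11). ALPI, an enterocyte enzyme, had 193 to 386 counts in Caco-2 and 0 to 2 in HT-29. Of 6 hypoxia response genes, CoCl2 raised all 5 tested in Caco-2 and all 6 tested in HT-29 past the limits for a call, and OD 4 and 3. Levels below are RPKM (reads per kilobase of gene) from the authors' table, given as mean ± SD with n = 3. They were scaled to library size with TMM (trimmed mean of M) factors set per line. Changes are log2 fold changes from edgeR on the counts, each with its standard error (SE) and with a p-value adjusted over all genes tested by the Benjamini-Hochberg method (FDR). A gene passed when its FDR was under 0.05, and it was called when its log2 fold change was also over 1 in size. In whole cultures, fewer cells of a type and less RNA per cell cannot be told apart.

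**Figure D1:**
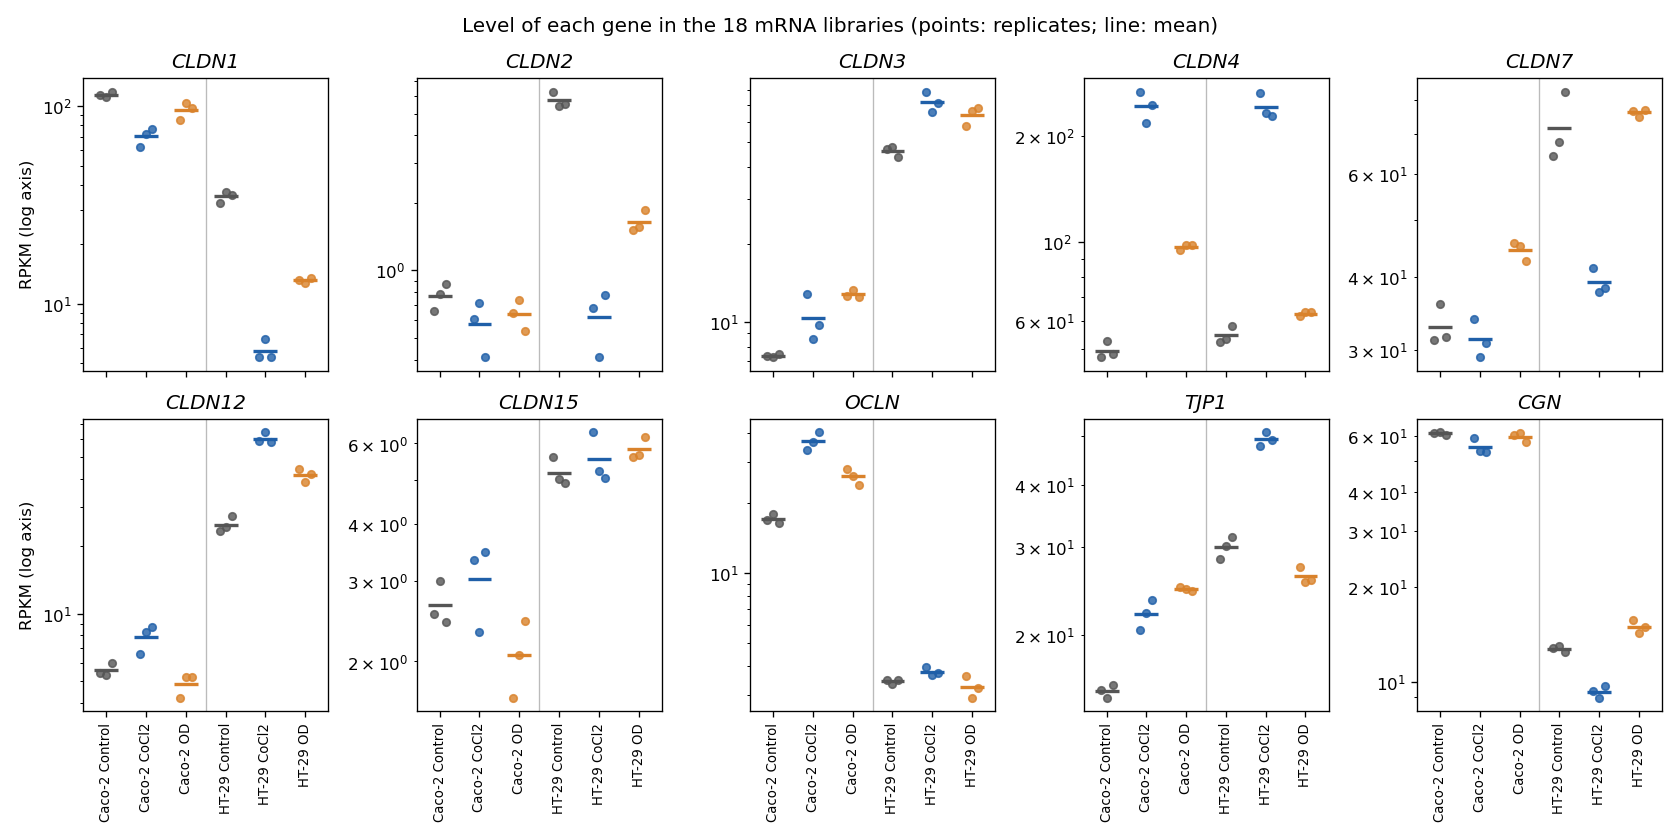
Level of each gene in RPKM (log axis) in the 18 libraries, with 1 point per replicate and a line at the mean, grouped by cell line and treatment. CLDN4 reached 218 to 266 RPKM with CoCl2 in both lines, while CLDN1 and CLDN2 were lower than control in every treated library of HT-29.

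The first question was what each agent did to the tight junction genes of each line. In Caco-2, CoCl2 raised CLDN4 and OCLN past the limits for a call and 6 of the 10 genes passed the FDR, 5 higher and 1 lower. With OD, CLDN4 alone was called and 6 passed, again 5 higher and 1 lower. In HT-29, CoCl2 raised CLDN4 and CLDN12 and lowered CLDN1 and CLDN2 past the limits, with 5 higher and 4 lower of the 9 that passed. OD lowered CLDN1 and CLDN2 past the limits in HT-29, with 5 higher and 3 lower of the 8 that passed. The background of calls in Caco-2 was 23.4% of 16034 genes under CoCl2 and 11.7% under OD, and in HT-29 it was 41.3% of 15812 genes and 17.1%. The share that passed the FDR alone was 64.7%, 50.4%, 82.8% and 68.8% in the same order, so the counts of members stood near the background. When scaled by library size only, which shifts the fold changes of all genes down, Caco-2 had 3 members higher and 4 lower under CoCl2 and 5 and 4 under OD, and HT-29 had 3 and 6 under CoCl2 and 3 and 4 under OD, so the balance of directions depends on the scaling. By direction, in Caco-2 the calls were 9.13% higher and 14.2% lower under CoCl2, and under OD 4.43% and 7.27%. In HT-29 they were 17.4% higher and 23.9% lower under CoCl2, and under OD 9.50% and 7.57%. By the FDR alone, Caco-2 had 31.6% higher and 33.1% lower under CoCl2, and under OD 25.7% and 24.7%, while HT-29 had 40.7% and 42.2% under CoCl2, and under OD 34.7% and 34%. The median size of the log2 fold change over the members was 0.53, 0.40, 0.80 and 0.24, against 0.52, 0.37, 0.82 and 0.42 over all genes tested. The comparisons of both agents within a line share their control libraries.

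**Figure D2:**
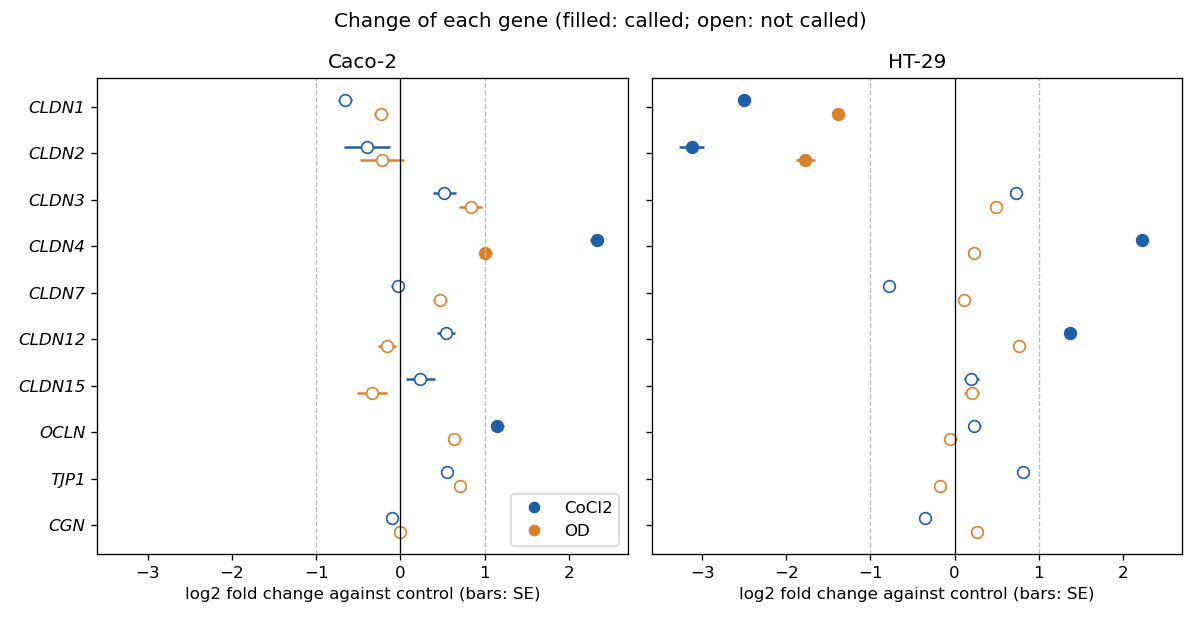
log2 fold change against control with its SE for each gene in Caco-2 (left) and HT-29 (right), CoCl2 in blue and OD in orange, filled where called. In HT-29 the CLDN1 and CLDN2 values lie between -3.13 and -1.39, and CLDN4 with CoCl2 lies at 2.33 in Caco-2 and 2.23 in HT-29.

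CLDN4, a sealing claudin, had the largest rise of the 10 genes under CoCl2 in both lines. Its Caco-2 controls stood at 47.4, 52.7 and 48.5 RPKM, the CoCl2 libraries at 266, 218 and 244, and the OD libraries at 94.9, 98.4 and 98.6. All 3 groups were apart, with OD between control and CoCl2. CoCl2 raised it 5.03-fold, by 2.33 on the log2 scale (SE 0.08, FDR 1.05e-17), and OD raised it 2.01-fold, by 1.01 (SE 0.08, FDR 1.62e-10). The OD change lay at the limit of 1 and was not called with library size only (0.86), with limma on the deposited values (0.96), or without control replicate 1 (0.98) or control replicate 3 (1.00). In HT-29, CLDN4 stood at 52.5, 53.5 and 58.2 RPKM in controls, at 264, 231 and 227 with CoCl2 and at 62.0, 63.5 and 63.5 with OD. The CoCl2 libraries again stood far above the rest, and the OD libraries lay just above the controls without overlap. The change was 2.23 under CoCl2 (SE 0.05, FDR 4.30e-23) and 0.22 under OD (SE 0.05, FDR 0.000550). The last value was 0.09 with library size only and did not pass (FDR 0.137). CLDN4 lies on chromosome 7, 73799542 to 73832690, plus strand (GRCh38, GENCODE v44), and overlaps no other gene.

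CLDN1, also a sealing claudin, fell in each line with each agent, and by more in HT-29. In Caco-2 it stood at 114.5, 110.8 and 118.4 RPKM in controls, at 62.3, 72.5 and 77.0 with CoCl2, and at 84.7, 103.6 and 97.9 with OD. No treated library reached a control, and the OD libraries lay between. The changes were -0.66 (SE 0.08, FDR 2.90e-07) for CoCl2 and -0.23 (SE 0.08, FDR 0.0260) for OD. The OD change in Caco-2 did not pass without control replicate 1 (-0.23, FDR 0.0630), control replicate 3 (-0.20, FDR 0.104) or OD replicate 1 (-0.15, FDR 0.117). In HT-29 the controls held 32.4, 37.0 and 35.4 RPKM, the CoCl2 libraries 5.40, 6.61 and 5.35, and the OD libraries 13.3, 12.7 and 13.4. These groups were widely separated, with CoCl2 lowest. The changes were -2.50 (SE 0.07, FDR 8.07e-22), which is 5.64-fold lower, and -1.39 (SE 0.06, FDR 6.38e-17), which is 2.62-fold lower. CLDN1 lies on chromosome 3, 190305707 to 190322446, minus strand.

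CLDN3 and CLDN7 complete the sealing group. CLDN3 stood in Caco-2 at 7.32, 7.26 and 7.47 RPKM in controls, at 12.8, 8.54 and 9.68 with CoCl2, and at 12.6, 13.3 and 12.4 with OD. Every treated library was above the controls, and both treated groups overlapped. The rise was 0.52 under CoCl2 (SE 0.14, FDR 0.00232) and 0.84 under OD (SE 0.14, FDR 2.01e-05). In HT-29, CLDN3 went from 47.2, 47.9 and 43.8 RPKM to 78.8, 65.5 and 71.1 under CoCl2 and to 57.7, 66.5 and 68.0 under OD. Again the treated groups overlapped each other and not the controls. The rise was 0.73 (SE 0.07, FDR 8.47e-11) and 0.50 (SE 0.06, FDR 1.69e-07), in each case below the limit for a call. With library size only the CoCl2 rise was 0.20 in Caco-2 (FDR 0.214) and 0.09 in HT-29 (FDR 0.194) and did not pass. CLDN3 lies on chromosome 7, 73768997 to 73770270, minus strand, on the same chromosome as CLDN4.

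CLDN7 moved differently with each agent. In Caco-2 its controls were at 31.2, 35.9 and 31.6 RPKM, the CoCl2 libraries at 33.9, 29.1 and 30.8, and the OD libraries at 45.8, 45.1 and 42.6. The OD libraries alone stood apart. CLDN7 rose by 0.47 with OD (SE 0.08, FDR 3.23e-05), and with CoCl2 the difference was -0.03 (95% interval -0.19 to 0.13, FDR 0.725), which was -0.36 and passed with library size only (FDR 0.000514). In HT-29 its controls were at 64.3, 67.9 and 82.8 RPKM, the CoCl2 libraries at 41.5, 37.6 and 38.3, and the OD libraries at 76.8, 74.9 and 77.1. CoCl2 lay below the other groups, which overlapped. CLDN7 fell by 0.79 on the log2 scale with CoCl2 (SE 0.07, FDR 3.33e-11), and the OD difference was 0.11 (95% interval -0.02 to 0.24, FDR 0.133). With library size only the CoCl2 value was -1.42 and was called, and without control replicate 3 the OD value was 0.23 and passed (FDR 0.000393). CLDN7 (chromosome 17, 7259903 to 7263983, minus strand) overlaps exons of ELP5 on the other strand, which had 199 to 758 counts, and whether the counting used strand is not given in the sources used here. It shares 7.17% of its 75-base stretches, the read length, with a readthrough transcript, so a part of its reads could be split.

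CLDN2, which forms a channel for sodium and water, was the lowest of the 10 genes in Caco-2 and fell with both agents in HT-29. In Caco-2 it stood at 0.662, 0.783 and 0.869 RPKM in controls, at 0.609, 0.718 and 0.409 with CoCl2 and at 0.647, 0.736 and 0.537 with OD, from 25 to 42 counts per library. All of these groups overlapped. The differences were -0.40 for CoCl2 (95% interval -0.92 to 0.13, FDR 0.201) and -0.22 for OD (95% interval -0.73 to 0.29, FDR 0.504), which did not pass. The CoCl2 value was -0.71 and passed with library size only (FDR 0.0232). In HT-29 the controls held 6.26, 5.40 and 5.51 RPKM, the CoCl2 libraries 0.678, 0.410 and 0.773, and the OD libraries 1.51, 1.56 and 1.85. The groups did not overlap, with CoCl2 lowest. The changes were -3.13 (SE 0.15, FDR 1.24e-16), which is 8.73-fold lower, and -1.77 (SE 0.12, FDR 2.84e-13), which is 3.42-fold lower. The CoCl2 libraries of HT-29 held 21 to 33 counts of CLDN2 and the controls 321 to 486. CLDN2 lies on chromosome X, 106900164 to 106930861, plus strand, and overlaps exons of RIPPLY1, which had at most 3 counts. MORC4, on the minus strand, also overlaps the CLDN2 locus outside its exons and had 267 to 1605 counts, and since the use of strand is not given, a part of MORC4 reads in the low CLDN2 counts was not tested.

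CLDN15, the other pore-forming claudin, was called against control in neither line. In Caco-2 it stood at 2.66 ± 0.302 RPKM in controls, 3.04 ± 0.629 under CoCl2 and 2.06 ± 0.397 under OD, and all groups overlapped. The differences of 0.23 (FDR 0.238) and -0.34 (FDR 0.122) did not pass. With library size only the OD value was -0.49 and passed (FDR 0.0326). In HT-29 the levels were 5.18 ± 0.375, 5.54 ± 0.703 and 5.82 ± 0.333 RPKM, again with overlap between all groups. There the CoCl2 difference was 0.20 (SE 0.09, FDR 0.0535), and it was -0.43 with library size only. The OD difference was also 0.20 (SE 0.09, FDR 0.0491), and it no longer passed with DESeq2 (0.18, FDR 0.148) or without any single library of the OD group or without control replicate 2 (0.18) or 3 (0.16), at FDR values up to 0.186. The CoCl2 difference passed without control replicate 1 (0.25, FDR 0.0263), CoCl2 replicate 2 (0.25, FDR 0.0361) or CoCl2 replicate 3 (0.26, FDR 0.0224). CLDN15 lies on chromosome 7, 101232092 to 101238820, minus strand.

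CLDN12, which lacks the motif by which most claudins bind ZO-1, rose mainly in HT-29. In HT-29 the controls held 23.3, 24.3 and 27.3 RPKM, the CoCl2 libraries 58.7, 64.4 and 58.1, and the OD libraries 44.1, 38.8 and 42.1. The groups did not overlap, with CoCl2 highest. The rise was 1.36 (SE 0.06, FDR 1.34e-17) for CoCl2 and 0.76 (SE 0.06, FDR 9.69e-12) for OD, and the first was 0.73 with library size only and then not called. In Caco-2 the controls held 5.42, 5.32 and 6.02 RPKM, the CoCl2 libraries 6.58, 8.32 and 8.71, and the OD libraries 4.21, 5.24 and 5.19. CoCl2 lay above the controls and OD just below them. CoCl2 raised CLDN12 by 0.54 (SE 0.11, FDR 0.000106), which was 0.22 with library size only and then did not pass (FDR 0.0938), and the OD difference was -0.16 (95% interval -0.37 to 0.05, FDR 0.229). CLDN12 (chromosome 7, 90383721 to 90513402, plus strand) overlaps exons of CDK14, GTPBP10 and PTTG1IP2 on its own strand and shares 13.3% of its 75-base stretches with other genes, so its counts could be split.

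OCLN, which encodes occludin, changed mainly in Caco-2. Its controls there were at 16.9, 18.1 and 16.5 RPKM, the CoCl2 libraries at 34.1, 36.9 and 40.5, and the OD libraries at 28.1, 26.3 and 24.1. The 3 groups were apart. OCLN rose by 1.15 with CoCl2 (SE 0.08, FDR 8.63e-12) and by 0.64 with OD (SE 0.08, FDR 4.51e-07), and the first was 0.83 with library size only and then not called. In HT-29 the gene was low, at 3.47, 3.36 and 3.47 RPKM in controls, 3.97, 3.66 and 3.72 with CoCl2 and 3.63, 2.91 and 3.21 with OD. CoCl2 lay just above the controls, and OD overlapped them. The CoCl2 difference was 0.23 (SE 0.08, FDR 0.00825), but it turned to -0.40 with library size only (FDR 2.58e-05) and did not pass with no filter (0.17, FDR 0.0802) or with 18 libraries in the fit (0.12, FDR 0.222), and the OD difference was -0.05 (95% interval -0.20 to 0.10, FDR 0.547). OCLN lies on chromosome 5, 69492292 to 69558104, plus strand, and shares 4.13% of its 75-base stretches with other genes, among them the pseudogene OCLNP1, which had 3 to 43 counts.

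TJP1, which encodes the scaffold ZO-1, stood in Caco-2 at 15.6, 15.0 and 15.9 RPKM in controls, at 20.5, 22.2 and 23.5 with CoCl2 and at 24.9, 24.8 and 24.5 with OD. Every treated library was above the controls, OD highest. The rise was 0.55 (SE 0.07, FDR 3.72e-07) for CoCl2 and 0.71 (SE 0.07, FDR 1.43e-08) for OD. In HT-29, TJP1 went from 28.4, 30.1 and 31.5 RPKM to 47.8, 50.9 and 49.2 under CoCl2 and to 27.4, 25.6 and 25.8 under OD. CoCl2 lay above the controls and OD below. The changes were 0.81 (SE 0.05, FDR 1.16e-14) and -0.17 (SE 0.05, FDR 0.00287). The CoCl2 rise was 0.23 (Caco-2) and 0.18 (HT-29) when scaled by library size only, and the OD change in HT-29 -0.31, all of which passed. TJP1 lies on chromosome 15, 29699367 to 29968915, minus strand.

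CGN, which encodes cingulin, a plaque protein that binds ZO-1 and myosin, differed from control by at most 0.10 on the log2 scale in Caco-2 and passed there with library size only. Its level there was 61.2 ± 0.620 RPKM in controls, 55.5 ± 3.13 under CoCl2 and 59.7 ± 1.91 under OD. The CoCl2 libraries (53.5 to 59.1) lay below the controls (60.5 to 61.7) without overlap, and the OD libraries overlapped the controls. The differences were -0.10 (95% interval -0.24 to 0.03, FDR 0.202) and -0.00033 (95% interval -0.14 to 0.14, FDR 0.997). They were -0.42 (FDR 7.93e-06) and -0.15 (FDR 0.0489) with library size only. In HT-29 the controls held 12.8, 12.99 and 12.4 RPKM, the CoCl2 libraries 9.38, 8.91 and 9.72, and the OD libraries 15.8, 14.3 and 14.9. The agents lay on opposite sides of the controls with no overlap. CGN fell by 0.36 on the log2 scale with CoCl2 (SE 0.05, FDR 8.67e-07) and rose by 0.26 with OD (SE 0.05, FDR 4.81e-05), and these were -0.99 and 0.13 with library size only. CGN lies on chromosome 1, 151510510 to 151538692, plus strand.

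The division of claudin mRNA among the 7 genes was described next, as the share of each in their summed RPKM. CLDN1 held 53.7 ± 2.06% of it in Caco-2 controls, 19.4 ± 2.82% with CoCl2 and 37.0 ± 2.08% with OD. CLDN4 held 23.2 ± 1.07%, 66.1 ± 2.53% and 37.8 ± 1.09% in the same groups, so that the leading claudin of Caco-2 was CLDN1 in controls and CLDN4 with CoCl2, and with OD their RPKM ranges overlapped. In HT-29, CLDN7 led the controls at 29.3%, and CLDN4 went from 22.5 ± 0.236% to 56.7 ± 1.06% with CoCl2 and 23.7 ± 0.386% with OD. CLDN1 in HT-29 held 14.4 ± 0.869%, 1.37 ± 0.215% and 4.95 ± 0.133%. The summed level was 213 ± 3.78 RPKM in Caco-2 controls, 366 ± 24.1 with CoCl2 and 258 ± 12.1 with OD, and 243 ± 13.3, 424 ± 27.0 and 266 ± 5.87 in HT-29.

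**Figure D3:**
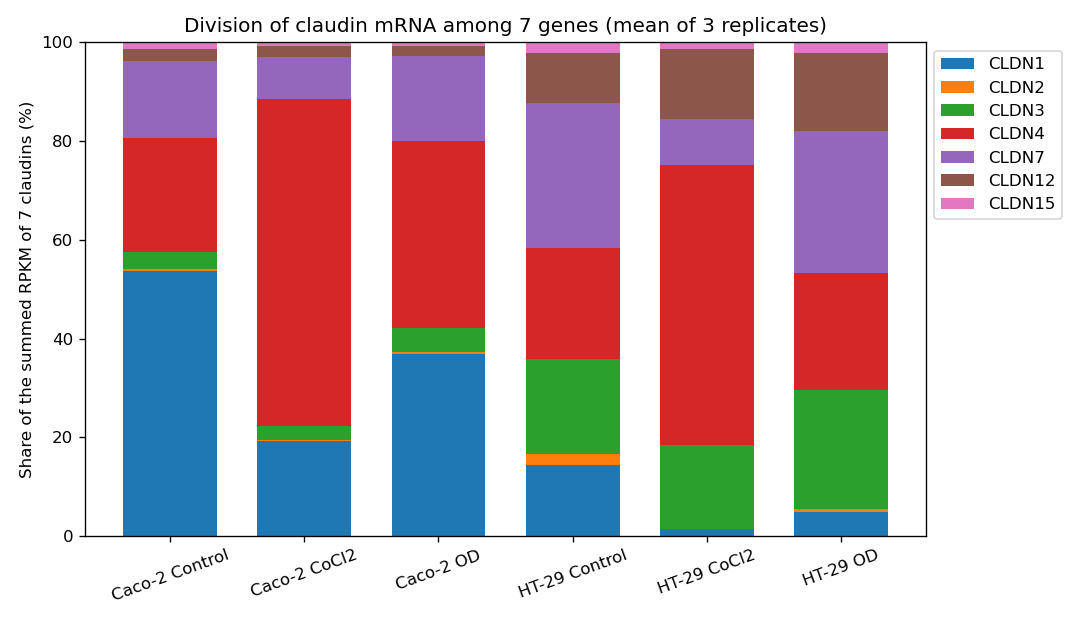
Share of each claudin in the summed RPKM of the 7 claudins, as the mean of 3 replicates per group, on an axis from 0 to 100%. The CLDN4 share is highest with CoCl2 in both lines, at 66.1% in Caco-2 and 56.7% in HT-29.

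The ratio of CLDN4 to CLDN1 RPKM was 0.433 ± 0.0372 in Caco-2 controls, 1.03 ± 0.0872 with OD and 3.48 ± 0.690 with CoCl2. In HT-29 it was 1.57 ± 0.107, 4.80 ± 0.176 and 42.1 ± 6.90 in the same order. The order of control, OD and CoCl2 held in every library of each line. The level of one gene against another depends on the length used, which does not touch the change of a gene between groups. The authors' values divide CLDN4 by 4687 bases, as recovered from counts and RPKM, whereas its canonical GENCODE transcript has 1695. With canonical lengths, CLDN4 held 40.8% and CLDN1 35.9% of claudin RPKM in Caco-2 controls, so CLDN4 then led already without treatment. In HT-29 controls CLDN4 led as well with these lengths, at 36.4% against 27.7% for CLDN7.

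The levels without treatment were compared between the lines. With 9 of the 10 genes called, 6 higher in HT-29 and 3 lower, the lines differed in most of this set, beside a background of 45.8% of 17921 genes, 21.6% higher and 24.2% lower. By the FDR alone 79.1% of genes passed, 39.5% higher and 39.6% lower. HT-29 controls had more CLDN2 (2.97, SE 0.16, FDR 7.70e-18), CLDN3 (2.73, FDR 2.02e-22), CLDN12 (2.24, FDR 2.18e-21), CLDN7 (1.20, FDR 1.23e-15), CLDN15 (1.03, FDR 2.20e-08) and TJP1 (1.03, FDR 1.37e-16). They had less OCLN (-2.25, FDR 4.70e-23), CGN (-2.19, FDR 4.13e-26) and CLDN1 (-1.64, FDR 2.37e-19). CLDN4 differed by 0.22 (SE 0.07, FDR 0.00503) and was not called, and with DESeq2 it did not pass (0.15, FDR 0.0547). CLDN15 and TJP1 lay at the limit, and with size factors of DESeq2 each was 0.96 and not called. CLDN15 was also not called without Caco-2 control replicate 1 (0.99), Caco-2 control replicate 3 (0.98) or HT-29 control replicate 1 (0.99), and TJP1 without HT-29 control replicate 3 (0.99). The order of levels in Caco-2 controls was CLDN1, CGN, CLDN4, CLDN7, OCLN, TJP1, CLDN3, CLDN12, CLDN15 and CLDN2, with no overlap between neighbours. In HT-29 controls it was CLDN7, CLDN4, CLDN3, CLDN1, TJP1, CLDN12, CGN, CLDN2, CLDN15 and OCLN, where CLDN2 and CLDN15 overlapped and the other neighbours did not. The deposited RPKM were scaled within each line, so these orders were read within a line only. They also depend on the gene length used. Under canonical transcript lengths CLDN4 ranked first in the controls of both lines. In Caco-2 controls TJP1 then stood above OCLN and CLDN12 above CLDN3. In HT-29 controls CLDN12 (47.2 ± 3.95 RPKM), TJP1 (46.9 ± 2.46) and CLDN3 (46.2 ± 2.19) then differed by less than their SD. All of them stood above CLDN1 (36.7 ± 2.45).

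The next comparison asked whether a response differed between the lines, as the change in HT-29 less that in Caco-2. For CoCl2, CLDN1 (-1.95, SE 0.12, FDR 2.86e-15), CLDN2 (-2.83, SE 0.31, FDR 2.03e-09) and OCLN (-1.03, SE 0.11, FDR 3.00e-09) were called, 3 of 10 and all lower, beside a background of 21.6%, with 7.79% higher and 13.8% lower. By the FDR alone, 6 of the 10 passed, 1 higher and 5 lower, beside 49.8% of genes, 21.1% higher and 28.6% lower. The OCLN value was -0.92 with size factors of DESeq2 and -0.96 without Caco-2 CoCl2 replicate 3, and was then not called. CLDN7 (-0.86, FDR 8.66e-08) and CGN (-0.36, FDR 0.000690) responded lower in HT-29 and CLDN12 (0.72, FDR 1.26e-05) higher, below the limit. For CLDN4 the difference was -0.21 (95% interval -0.40 to -0.02, FDR 0.0732), for CLDN3 0.10 (-0.19 to 0.39, FDR 0.612), for TJP1 0.15 (-0.02 to 0.32, FDR 0.157) and for CLDN15 -0.15 (-0.53 to 0.23, FDR 0.559). CLDN4 passed without Caco-2 control replicate 2 (-0.26), Caco-2 CoCl2 replicate 2 (-0.28), HT-29 control replicate 1 (-0.25) or HT-29 CoCl2 replicate 1 (-0.28), with FDR values from 0.0164 to 0.0470, and TJP1 passed with DESeq2 (0.26, FDR 0.00395).

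For OD, CLDN1 (-1.18, SE 0.11, FDR 1.91e-10) and CLDN2 (-1.58, SE 0.27, FDR 1.17e-05) were called, 2 of 10 and both lower, beside a background of 15.2%, with 8.96% higher and 6.24% lower. All 10 genes passed the FDR alone, 3 higher and 7 lower in HT-29, where 42.9% of all genes did, 20.9% higher and 22.0% lower. TJP1 (-0.90, FDR 2.77e-10), CLDN4 (-0.80, FDR 3.53e-08), OCLN (-0.71, FDR 3.73e-06), CLDN7 (-0.38, FDR 0.00545) and CLDN3 (-0.36, FDR 0.0418) responded lower in HT-29. CLDN12 (0.90, FDR 5.37e-07), CLDN15 (0.52, FDR 0.0326) and CGN (0.24, FDR 0.0188) responded higher. CLDN3 did not pass with DESeq2 (-0.34, FDR 0.0594) or without any of 7 of the 12 libraries (FDR up to 0.113), CLDN15 without any of 6 (up to 0.129), and CGN without Caco-2 OD replicate 3 (0.21, FDR 0.0524) or HT-29 OD replicate 1 (0.20, FDR 0.0784).

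**Figure D4:**
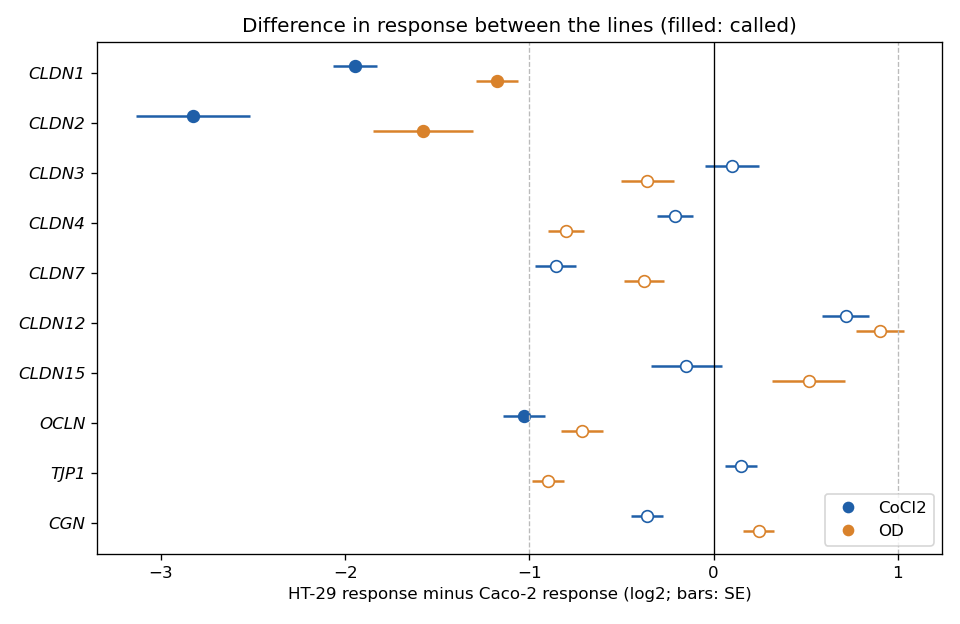
Response in HT-29 minus response in Caco-2 on the log2 scale with its SE, for CoCl2 in blue and OD in orange, filled where called. CLDN1 and CLDN2 lie at -1.95 and -2.83 for CoCl2 and at -1.18 and -1.58 for OD.

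Both agents were then compared with each other within a line, at the single dose of each. In Caco-2, CLDN4 was higher with CoCl2 than with OD by 1.32 (SE 0.08, FDR 1.58e-12) and was the 1 gene called of 10, beside a background of 11.7%, with 5.21% higher and 6.44% lower. Of the 6 that passed the FDR, beside 49.6% of all genes (24.4% higher, 25.2% lower), CLDN12 (0.70, FDR 8.24e-06), CLDN15 (0.57, FDR 0.00978) and OCLN (0.51, FDR 1.00e-05) were also higher with CoCl2, and CLDN7 (-0.51, FDR 1.35e-05) and CLDN1 (-0.43, FDR 0.000165) lower. CLDN15 did not pass without CoCl2 replicate 3 (0.45, FDR 0.0723). CLDN3 (-0.31, 95% interval -0.58 to -0.05, FDR 0.0548) and TJP1 (-0.16, -0.30 to -0.02, FDR 0.0629) did not pass, but CLDN3 did without CoCl2 replicate 1 (-0.48, FDR 0.00311) and TJP1 without CoCl2 replicate 3 (-0.21, FDR 0.0367). CGN (-0.10, -0.24 to 0.03, FDR 0.232) and CLDN2 (-0.18, -0.72 to 0.36, FDR 0.618) did not pass either. With library size only, CLDN3 (-0.48, FDR 0.00537), TJP1 (-0.33, FDR 0.000368) and CGN (-0.27, FDR 0.00153) passed, and CLDN15 (0.40, FDR 0.0748) did not.

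In HT-29, CLDN4 was higher with CoCl2 by 2.00 (SE 0.05, FDR 7.54e-22), and CLDN1 (-1.11, SE 0.07, FDR 3.40e-13) and CLDN2 (-1.35, SE 0.18, FDR 2.47e-07) were lower, 3 called of 10 beside a background of 29.9%, with 10.8% higher and 19.2% lower. By the FDR alone 9 passed, 5 higher and 4 lower, beside 77.7% of genes, 37.1% higher and 40.6% lower. TJP1 was higher by 0.98 (FDR 3.80e-16), just under the limit, and it was called without CoCl2 replicate 1 (1.00) or OD replicate 1 (1.01). CLDN12 was higher by 0.60 (FDR 4.21e-10), OCLN by 0.28 (FDR 0.00199) and CLDN3 by 0.23 (FDR 0.00197), but with library size only CLDN12 was 0.11 and did not pass (FDR 0.0724), OCLN turned to -0.21 and CLDN3 to -0.27. CLDN7 (-0.90, FDR 3.32e-12) and CGN (-0.62, FDR 4.04e-11) were lower, and with library size only they were -1.39 and -1.11 and were called. CLDN15 differed by -0.0018 (95% interval -0.18 to 0.18, FDR 0.986), but with library size only it was -0.50 and passed (FDR 3.11e-05).

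Other genes of cell junctions were counted from lists written from general knowledge, 81 genes in all, of which 56 were tested in each line. CoCl2 called 6 higher and 4 lower in Caco-2, which is 17.9%, and OD 5 and 3, which is 14.3%. In HT-29, CoCl2 called 9 higher and 9 lower, which is 32.1%, and OD 7 and 3, which is 17.9%. These shares stood beside the backgrounds of 23.4%, 11.7%, 41.3% and 17.1% given above. The median log2 fold change of these genes was 0.33, 0.35, 0.29 and 0.22, against -0.03, -0.02, -0.03 and 0.01 over all genes tested. With library size only, the median over all genes shifted by -0.32, -0.15, -0.63 and -0.14.

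**Figure D5:**
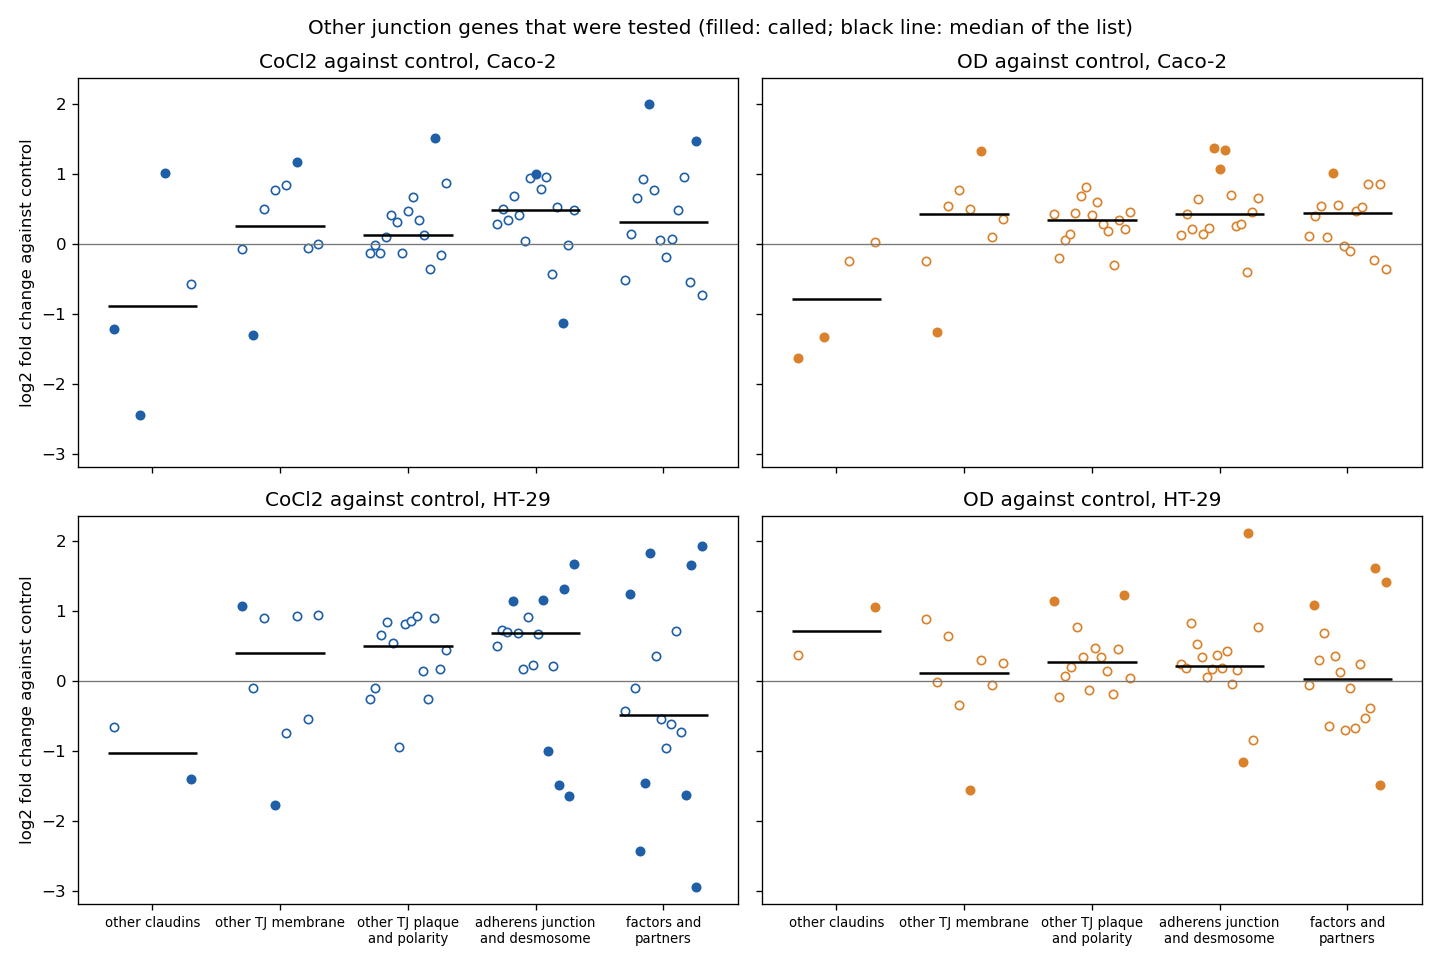
log2 fold change against control of the other junction genes tested, 1 point per gene in 5 lists and 4 comparisons, filled where called, with a line at each list's median. Called genes lie on both sides of 0 in every comparison, from -2.94 for WNK4 with CoCl2 to 2.11 for NECTIN4 with OD, both in HT-29.

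Among membrane proteins of the tight junction, 8 were tested in each line. LSR, a protein of the contacts where 3 cells meet, rose in Caco-2 with CoCl2 (1.17, SE 0.10, FDR 2.51e-10) and OD (1.33, SE 0.10, FDR 7.79e-11), while the adhesion molecule CLMP fell (-1.30, FDR 3.66e-11, and -1.25, FDR 1.92e-10). In HT-29 with CoCl2, ILDR1, a relative of LSR, fell (-1.77, SE 0.14, FDR 3.98e-12), and the polarity protein CRB3 rose (1.08, SE 0.08, FDR 6.79e-13). Of the plaque and polarity genes, Caco-2 had 15 tested and HT-29 14. TJP3 and CGNL1, relatives of TJP1 and CGN, rose with OD in HT-29 (1.23, FDR 1.75e-16, and 1.15, FDR 5.07e-12).

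Of 16 genes of adherens junctions and desmosomes, Caco-2 had 15 tested and HT-29 16. The desmosomal genes DSC2 (1.37, FDR 1.59e-12), DSP (1.34, FDR 4.57e-13) and DSG2 (1.07, FDR 2.42e-10) rose with OD in Caco-2, and DSG2 also rose with CoCl2 (1.01, FDR 2.52e-10). NECTIN3, an adhesion protein of adherens junctions, fell with CoCl2 in Caco-2 (-1.13, FDR 1.84e-09) and with both agents in HT-29 (-1.48, FDR 1.95e-15, and -1.16, FDR 1.59e-13). In HT-29 the plakophilins went opposite ways with CoCl2, PKP3 by 1.67 (FDR 2.50e-21) and PKP2 by -1.64 (FDR 6.41e-19), and NECTIN4 rose by 2.11 with OD (FDR 2.73e-18).

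Of 18 factors and partners known to act on claudins or occludin, Caco-2 had 14 tested and HT-29 16. ELF3, an epithelial transcription factor, rose in Caco-2 with CoCl2 (2.00, SE 0.08, FDR 3.57e-16) and OD (1.02, SE 0.08, FDR 3.29e-10), and in HT-29 with CoCl2 (1.83, SE 0.05, FDR 7.47e-22). SNAI1, a repressor of epithelial genes, rose with CoCl2 in Caco-2 (1.47, SE 0.16, FDR 1.70e-08). WNK4, a kinase that phosphorylates claudins, fell in HT-29 with CoCl2 (-2.94, FDR 1.15e-20) and OD (-1.49, FDR 6.43e-16), and MYLK, the myosin light chain kinase, fell with CoCl2 (-1.63, FDR 1.68e-14). In controls, CDX2 (-3.50, FDR 5.72e-26) and HNF4A (-2.55, FDR 2.14e-27), transcription factors of the intestinal epithelium, were lower in HT-29 than in Caco-2. Of the 16 genes of this list tested between the controls, 6 were called higher in HT-29 and 5 lower, beside a background of 45.8%. Named after their values were seen, CDX1 (27 to 49 counts against 0 to 2) and ARHGEF2 (4937 to 10216 against 574 to 803) stood higher in HT-29 controls.

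The other 17 claudins were sparse. CLDN16, CLDN19, CLDN20 and CLDN23 were tested in Caco-2 and CLDN9 and CLDN23 in HT-29. Those called are named here after their values were seen. With CoCl2 in Caco-2 these were CLDN19 (-2.45, FDR 6.37e-10), CLDN16 (-1.22, FDR 4.47e-06) and CLDN20 (1.01, FDR 0.0368), and with OD they were CLDN16 (-1.63, FDR 2.12e-07) and CLDN19 (-1.33, FDR 3.17e-06). In HT-29 CLDN9 fell with CoCl2 (-1.40, FDR 6.49e-07) and rose with OD (1.05, FDR 1.13e-07). CLDN20, whose change lay at the limit of 1, had 7 to 12 counts in Caco-2 controls and 14 to 25 with CoCl2. None of the 17 exceeded 152 counts in any library.

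For 9 of the genes, the nearest pattern is given among 9258 or 9259 genes with a mean of at least 100 counts in both lines, as the smallest root mean square (RMS) difference between the 4 log2 fold changes against control. CLDN4 was nearest to TMCC1, at an RMS difference of 0.14, and CLDN2 to USP13 (0.25). OCLN was nearest to TUFT1 (0.11), CLDN12 to JMY (0.09), TJP1 to TMEM18 (0.09), CLDN3 to ZNF787 (0.08), CLDN15 to SLC15A4 (0.06), CLDN7 to SMYD4 (0.05) and CGN to ZDHHC12 (0.03). TMCC1 changed by 2.35 with CoCl2 in Caco-2 and by 2.28 in HT-29.

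Cell state markers moved in the same libraries, given here as summed CPM with the TMM scaling of the fits. The sum of 6 enterocyte markers was 377 to 388 in HT-29 controls, 235 to 246 under CoCl2 and 231 to 239 under OD. VIL1, a protein of the brush border, fell there with CoCl2 (-2.62, FDR 1.06e-23) and OD (-1.15, FDR 1.68e-16). FABP1 (-1.20, FDR 1.66e-09) and SI (-0.70, FDR 1.12e-06) also fell with CoCl2 in HT-29, while DPP4 rose (0.35, FDR 1.10e-07). With OD, FABP1 (-0.67), SI (-0.77) and DPP4 (-0.26) fell and passed, while APOA1, at 1 to 17 counts in HT-29, was called higher (1.40, FDR 0.0251). In Caco-2 the sum was 4461 to 4904 in controls and 5044 to 5681 under CoCl2, but with library size only these groups overlapped, at 5021 to 5475 and 4455 to 5066. Among its genes in Caco-2, CoCl2 raised APOA1 (0.55, FDR 3.32e-06) and lowered SI (-1.33, FDR 2.83e-10), the 1 gene called, VIL1 (-0.85, FDR 1.71e-10), FABP1 (-0.75, FDR 3.60e-08) and ALPI (-0.47, FDR 0.000677). The sum of 3 goblet markers was lower with each agent in both lines, from 36.4 to 46.0 CPM in Caco-2 controls to 22.1 to 24.7 under CoCl2 and 26.7 to 29.9 under OD, and from 60.6 to 66.2 in HT-29 controls to 25.4 to 35.1 and 40.5 to 41.5. In Caco-2 this sum was nearly all TFF3, at 282 to 678 counts, beside 2 to 13 of MUC2 and 4 to 13 of SPDEF. MUC2 with OD in Caco-2 was 0.86 and did not pass (FDR 0.203). The sum of 5 epithelial markers in Caco-2 was 3720 to 3857 in controls, 6477 to 7176 under CoCl2 and 5103 to 5519 under OD. In HT-29 it was 4891 to 4923 in controls, 6547 to 6900 under CoCl2 and 6352 to 6969 under OD. Library size only was an alternative chosen after seeing the data. With it, the HT-29 sum was 5848 to 5873 in controls, lower under CoCl2 (5010 to 5323) and higher under OD (7002 to 7480). Of these markers, KRT20 was called higher in HT-29 with CoCl2 (1.23) and OD (1.39), and in Caco-2 with OD (1.49). KRT8 (1.06) and KRT18 (1.35) were called higher with CoCl2 in Caco-2, and none was called lower. The part of these markers in the changes of the junction genes was not tested.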

How the data were processed

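The authors deposited read counts per gene for the 18 mRNA libraries and a table that recomputation showed to hold log2(RPKM + 1), with TMM (trimmed mean of M) factors set per line. Per the labels and the study's methods, single-end 75-base reads of a stranded kit were trimmed with cutadapt 2.10 and aligned with STAR 2.7.5b to GRCh38.p13 with a GENCODE annotation, and edgeR 3.30.3 is listed. The counting tool and its use of strand are not given in the sources used here. Each column was tied to its sample by name, and 0 columns were left without one.

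Counts were tested with edgeR 4.0.16 in R 4.3.3 (quasi-likelihood F test, two-sided, TMM, filterByExpr), each line over its 9 libraries and differences between lines over 18. Adjustment ran over all genes tested. Intervals of 95% are normal intervals from the SE. RPKM were taken back from the deposited log2 values, whose scaling placed a log2 fold change 0.02 to 0.09 below the fit. Alternatives used DESeq2 1.42.0, limma 3.58.1, other scalings and filters, and each replicate left out. The 18 replicate pairs compared within groups differed beyond counting error, at a chi-square of 1.96 to 12.6 per degree of freedom. Reads carried no molecular identifiers. The libraries were tested without pairing. Libraries with the same replicate number in different groups of a line were correlated after each gene's group mean was taken off. Of 18 such pairs, 0 had a correlation over 0.1, which cannot show whether they were cultured or processed together.

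All 10 members are named. Of each other list, at most 3 called genes with the largest change and a mean count of at least 100 are named, and any others are marked. Promoters are from RefSeq, matched for 10 of 10 genes, and gene coordinates and lengths from GENCODE v44. The members, lists and tests were chosen with earlier results of these data known. The nearest pattern to CLDN1 is not reported here. Protein sequences and the miRNA libraries were not used here.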

Additional observations from a re-analysis of the deposited data

Results flagged for a closer look

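The response to an agent differed between the lines for a few of these genes, by the interaction test in edgeR over 18 libraries. With CoCl2 the HT-29 change less the Caco-2 change was -1.95 for CLDN1, -2.83 for CLDN2 and -1.03 for OCLN. CLDN1 was lower than control in every treated library of both lines, so its difference is one of size. CLDN2 fell in HT-29, while its Caco-2 groups overlapped at 25 to 42 counts per library. OCLN had the opposite place, with a change of 1.15 in Caco-2 and 0.23 in HT-29. With OD the differences were -1.18 for CLDN1 and -1.58 for CLDN2. Line and culture state cannot be told apart in any of them.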

How the results depend on the processing

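CLDN2 had low counts in Caco-2, at 25 to 42 per library, and its SE of 0.27 (CoCl2) and 0.26 (OD) on the log2 scale stood above that of the other 9 genes. With library size only, members called were 1 (CoCl2) and 0 (OD) for Caco-2 and 5 for CoCl2 against OD in HT-29, in place of 2, 1 and 3. The 0 for OD in Caco-2 also came from limma-trend on the deposited values and with a pseudocount of 0.1, where edgeR with no limit on the fold passed 6. Leaving out 1 replicate gave 0 to 1 there. With no limit on the fold change, members passing were 6 (CoCl2) and 6 (OD) for Caco-2, 9 and 8 for HT-29, 6 and 9 for CoCl2 against OD (Caco-2, HT-29), and 6 and 10 for the line differences (CoCl2, OD). Other junction genes called, in the order of the 4 treatment comparisons, CoCl2 against OD in each line, both line differences and the controls, were 10, 8, 18, 10, 3, 10, 9, 10 and 34. They were 6, 4, 9, 3, 0, 4, 5, 4 and 18 with limma-trend, and 40, 36, 51, 45, 28, 46, 32, 28 and 57 with no limit on the fold. For CoCl2 against OD in Caco-2 they were 5 with no filter and 0 with a pseudocount of 0.1, and for the controls 22 with that pseudocount. Over all genes in the same order, 3747, 1876, 6524, 2699, 1868, 4734, 3875, 2724 and 8202 were called. Limma-trend called 1098, 381, 2520, 744, 341, 1455, 1304, 795 and 2520, a pseudocount of 0.1 gave 2116, 878, 3893, 1295, 848, 2599, 2097, 1355 and 3392, and no limit on the fold 10370, 8084, 13097, 10876, 7957, 12286, 8916, 7682 and 14175. The share of calls that were higher was 39.1%, 37.9%, 42.1%, 55.7%, 44.7%, 36.0% and 36.0% in the first 7, and 19.7%, 23.3%, 17.2%, 43.4%, 28.3%, 12.9% and 23.2% with library size only.

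With library size only, the median RPKM over the members was 18.2 for Caco-2 controls and 23.8 after CoCl2, and 32.8, 18.7 and 22.4 for HT-29 controls, CoCl2 and OD, in place of 16.3, 26.7, 27.5, 24.2 and 20.6. With canonical transcript lengths, an alternative chosen after seeing the data, the CLDN1 share of claudin RPKM was 35.9%, 9.01%, 21.3%, 8.83%, 0.653% and 2.94% (control, CoCl2 and OD of Caco-2, then of HT-29), and the CLDN4 share 40.8%, 80.9%, 57.5%, 36.4%, 71.2% and 37.1%.

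Signs turned in some comparisons. With library size only these were CLDN15 (-0.089) with CoCl2 in Caco-2, CLDN15 (-0.43) and OCLN (-0.40) with CoCl2 in HT-29, CLDN7 (-0.027) with OD in HT-29, CLDN3 (-0.27) and OCLN (-0.21) for CoCl2 against OD in HT-29, and CLDN3 (-0.10) and TJP1 (-0.054) in the line difference for CoCl2. CGN with OD in Caco-2 was 0.0058 with RLE factors, 0.0059 with DESeq2, 0.029 with no filter and 0.0023 with 18 libraries in the fit, and leaving out 1 replicate gave -0.014 to 0.034. CLDN15 for CoCl2 against OD in HT-29 was 0.024 with RLE factors and with DESeq2. With 1 replicate left out, the range spanned 0 for CLDN7 with CoCl2 in Caco-2 (-0.086 to 0.031), OCLN with OD in HT-29 (-0.15 to 0.024), CLDN2 for CoCl2 against OD in Caco-2 (-0.37 to 0.052), CLDN15 for the same in HT-29 (-0.11 to 0.058) and CLDN3 in the line difference for CoCl2 (-0.012 to 0.26). Apart from CLDN15, OCLN and CLDN3 in HT-29 with library size only, none of these turned values passed an FDR of 0.05. Of 660 member values with 1 replicate left out, 640 kept direction and call. The cause was not tested.

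With the replicate number as a replicate block, members called were 2, 1, 4 and 2 in the 4 treatment comparisons, the same numbers as without it, and all genes called were 3737, 1891, 6520 and 2700. After each gene's group mean was taken off, correlations of same-numbered libraries of different groups ran from -0.06 to 0.07. Of these 18 pairs, 4 were best with their own number.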
